A study of Mus musculus with 12 samples.

Results

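The subunits of the respiratory chain and of the ATP synthase that are encoded in the nucleus were followed in L929 cells, a mouse fibroblast line from connective tissue of a C3H/An animal. A gene was included when its symbol began with Ndufa, Ndufb, Ndufc, Ndufs, Ndufv, Sdha to Sdhd, Uqcr, Cox4 to Cox8 or Atp5, when it was protein-coding and no assembly factor or pseudogene, and when it reached 1 FPKM (fragments per kilobase of transcript and mapped library size, a unit that corrects for gene length and library size) in at least 3 of the 12 libraries. Of 85 such genes in the table, 80 passed, out of 10412 genes that passed the same filter and 17571 genes in all. They comprised 37 genes of complex I, 4 of complex II, 8 of complex III, 14 of complex IV and 17 of complex V. Ndufa4, its paralog Ndufa4l2 and Cox7a2l were counted with complex IV. Cox7a1, the lowest of the 80, reached 1 FPKM in every library, and the highest of the 5 genes left out reached it in 1. Subunits encoded by the mitochondrial genome were not analysed here.

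The respiratory chain sits in the inner mitochondrial membrane. Complexes I and II pass electrons from NADH and succinate to ubiquinone, complex III passes them on to cytochrome c, and complex IV reduces oxygen, while complexes I, III and IV pump protons. The ATP synthase, complex V, lets the protons back through a rotating ring of c subunits and makes ATP. Most of the subunits are nuclear genes that every nucleated cell type transcribes, and a few have a second isoform that is used mainly in heart, skeletal muscle, lung or testis.

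The study asked how the TBK1 inhibitor BX795 changes the response of L929 cells to plasmid DNA, with 4 groups of 3 libraries each. Mock cells received the solvent DMSO and no plasmid, and the pEGFP-N1 cells received DMSO and then pEGFP-N1, a plasmid that carries a green fluorescent protein gene. The BX795 cells received 0.5 uM BX795 and no plasmid, and the BX795 plus pEGFP-N1 cells received 0.5 uM BX795 and the plasmid. Pretreatment lasted 1 h and RNA was collected at 6 h, from 1 cell line in every group. The labels do not say that libraries of a group came from separate cultures, so the p-values measure only the spread between these libraries, which may be technical. FPKM keeps no read depth, and the depth of the libraries is unknown. Of the fibroblast markers, 8 of the 9 found reached 1 FPKM in at least 3 libraries and summed to between 5732 and 7380 FPKM per library. Most of that sum was S100a4 (mean 4421 FPKM) and Vim (1952 FPKM), while Col3a1 had a mean of 4.66 FPKM. Thy1 fell short, with at most 0.13 FPKM. Of the epithelial markers 0 of 4 reached that level (sums of 0.13 to 0.51 FPKM). Of the endothelial markers 0 of 2 did (0.01 to 0.13 FPKM) and of the leukocyte markers 1 of 4, Cd68 (111 to 138 FPKM).

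Several libraries stood apart before any subunit was considered. Isg15, an interferon-stimulated gene that checks the response to the plasmid, was at 1.46, 2.22 and 2.61 FPKM in mock, and 1.26 to 3.76 FPKM were found in BX795. It was at 151.74, 1.38 and 129.16 FPKM in pEGFP-N1 replicates 1, 2 and 3 and at 143.85, 3.39 and 5.15 FPKM in the libraries labelled BX795 plus pEGFP-N1. Replicate 2 of pEGFP-N1 was thus at the mock level and replicate 1 of BX795 plus pEGFP-N1 at the level of the other pEGFP-N1 libraries, so both go against their labels. Replicate 3 of BX795 plus pEGFP-N1 was odd in another way: its values summed to 467348 FPKM against 495030 to 513761 in the other 11 libraries, and long transcripts were high and short ones low in it. Medians of the pairwise comparisons that include them are given with and without some or all of these 3 libraries. Differences of single genes use all 12 libraries unless another set is stated.

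The subunit genes were among the most abundant transcripts of these cells. Of the 80, 63 were in the top 10% of tested genes by mean FPKM, and together they took 2.87% to 3.19% of all FPKM in a library. The median of their means was 129 FPKM. By complex the median was highest for complex IV (287 FPKM) and complex V (256 FPKM), followed by complex III (202 FPKM), complex II (118 FPKM) and complex I (93.7 FPKM). Complex V took 37.1% of the summed FPKM of the 80 genes, complex IV 26.5%, complex I 23.5%, complex III 9.79% and complex II 3.04%.

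**Figure D1:**
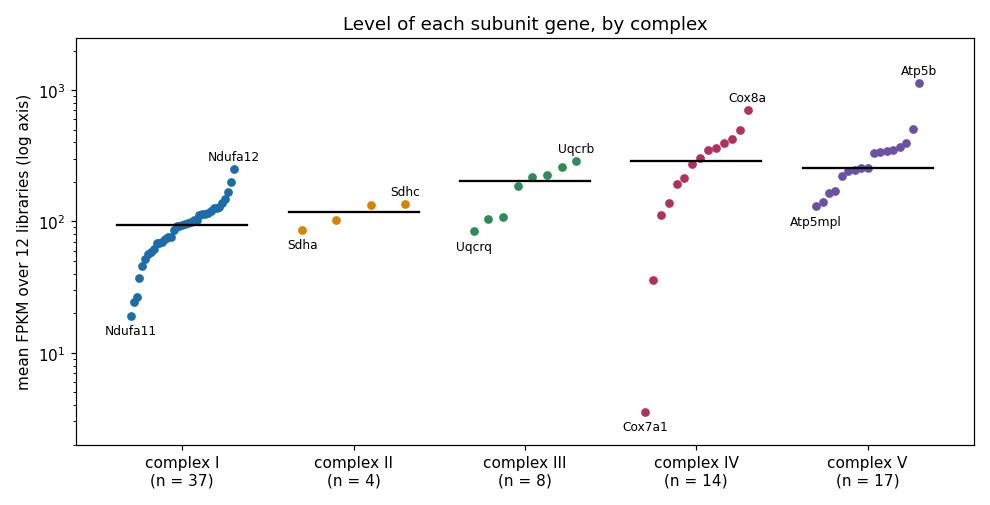
Mean FPKM over the 12 libraries (log axis) of each of the 80 subunit genes, grouped by complex, with the highest and lowest gene of each complex named and a black line at the median of the complex. Levels spread least within complex II, from 86.1 to 136 FPKM, and most within complex IV, from 3.56 FPKM for Cox7a1 to 702 FPKM for Cox8a.

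Within complex I, the NADH-binding arm and the iron-sulfur subunits of the catalytic core lay close to each other. Ndufs7 had a mean of 111 ± 13.4 FPKM (SD, n = 12 libraries), Ndufv2 was at 98.8 ± 6.4, Ndufs3 at 92.7 ± 7.27, Ndufv1, which binds NADH and FMN, at 76.4 ± 7.92, Ndufs8 at 72.9 ± 8.47 and Ndufs1 at 58.5 ± 2.48. The ranges of neighbours among these genes overlapped, but those of Ndufs8 and Ndufs1 did so only through BX795 plus pEGFP-N1 replicate 3, since Ndufs8 was at 50.68 FPKM there and at 69.48 to 84.54 FPKM in the other 11 libraries, where Ndufs1 was at 55.56 to 63.74 FPKM. The accessory subunits spread more widely, from Ndufa11 at 19.1 ± 1.44 FPKM to Ndufa12 at 252 ± 19.4 FPKM, a 13.2-fold span. Ndufab1, the mitochondrial acyl carrier protein, was at 114 ± 5.33 FPKM.

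The 4 genes of complex II spanned 1.57-fold: the flavoprotein Sdha at 86.1 ± 5.37 FPKM, the iron-sulfur protein Sdhb at 102 ± 7.84 and the membrane anchors Sdhd at 134 ± 8.15 and Sdhc at 136 ± 10.3. In complex III, the Rieske iron-sulfur protein Uqcrfs1 was at 109 ± 8.39 FPKM and the core protein Uqcrc2 at 104 ± 4.27, between Uqcrq at 84.3 ± 7.80 and Uqcrb at 289 ± 10.1.

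In complex V, the catalytic beta subunit Atp5b was the highest of all 80 genes, at 1129 ± 54.8 FPKM, while its partner in the F1 hexamer, the alpha subunit Atp5a1, was at 368 ± 16.4 FPKM. The gamma subunit Atp5c1, the rotor shaft, was at 255 ± 6.51 FPKM and varied least of all 80 genes, with a coefficient of variation of 2.55%. The epsilon subunit Atp5e was at 141 ± 25.2 FPKM and the small membrane subunit Atp5mpl, the lowest of the complex, at 130 ± 7.54. Atpif1, the inhibitor that keeps ATP synthase from running backwards, was outside the rule and lay between 43.1 and 55.5 FPKM.

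The c ring is built from a peptide that 3 genes encode, and their coding sequences are printed in part because their levels are those of 3 genes whose printed stretches code for the same amino acids. The last 225 bases of each coding sequence before the stop codon, from the GENCODE M21 transcripts, are given 5′ to 3′, with capitals in Atp5g2 and Atp5g3 at each base that differs from Atp5g1.
Atp5g1: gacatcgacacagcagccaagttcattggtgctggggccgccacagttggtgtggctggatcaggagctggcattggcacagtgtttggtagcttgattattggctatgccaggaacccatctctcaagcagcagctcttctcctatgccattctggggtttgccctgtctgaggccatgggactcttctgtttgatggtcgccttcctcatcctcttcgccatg
Atp5g2: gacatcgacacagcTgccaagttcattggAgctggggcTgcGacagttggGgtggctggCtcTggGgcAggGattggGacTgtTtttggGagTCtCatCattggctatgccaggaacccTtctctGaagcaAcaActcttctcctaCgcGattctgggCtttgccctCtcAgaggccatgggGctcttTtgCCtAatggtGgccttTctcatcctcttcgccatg
Atp5g3: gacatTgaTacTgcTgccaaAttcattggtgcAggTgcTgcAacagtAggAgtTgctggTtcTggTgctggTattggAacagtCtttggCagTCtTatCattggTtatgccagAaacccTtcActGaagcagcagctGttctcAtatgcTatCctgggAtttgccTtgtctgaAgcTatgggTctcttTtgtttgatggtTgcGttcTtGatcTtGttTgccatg
Atp5g1 (chr11:96068852-96075670, minus strand, GRCm38, as for all gene positions here) and Atp5g2 (chr15:102662864-102672352, minus strand) differed at 34 of these bases, 32 of them at the last base of a codon, and shared no identical run over 20 bases. Atp5g3 (chr2:73908447-73911326, minus strand) differed from Atp5g1 at 45 bases, 41 of them at the last base of a codon, with no identical run over 11 bases. Atp5g2 was the most abundant, at 504 ± 49.2 FPKM, then Atp5g3 at 398 ± 36.7 and Atp5g1 at 256 ± 14.8. The value of Atp5g2 is uncertain for another reason: 87.7% of the 31-base words of its transcripts also occur in other genes, Gm10175 above all. Of the 79 members with a matched transcript, 13 shared over 25% of these words with other genes. The others were Atp5l (69.7%), Uqcrb (54.3%), Atp5h (49.4%), Ndufs3 (49.3%), Atp5o (46.4%), Ndufb4 (38.3%), Cox5b (29.6%), Ndufa12 (29.3%), Atp5pb (28.9%), Ndufs5 (27.4%), Ndufb9 (25.5%) and Cox7c (25.2%). The counting could split reads between such copies. Ndufb4c had no matched transcript, so its share of such words is unknown.

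In the Cox4, Cox6b, Cox7b and Cox8 families the form used in most tissues carried nearly all of the signal. Cox4i1 took 99.5% to 99.95% of the summed FPKM of the Cox4 pair, with Cox4i2, the lung form, at 0.09 to 0.99 FPKM. Cox6b2, Cox7b2 and Cox8b, forms of testis or muscle, did not exceed 0.13, 0.43 and 0.17 FPKM in any library and were listed at 0 in 11, 8 and 11 of the 12, while Cox6b1, Cox7b and Cox8a averaged 498, 138 and 702 FPKM. Ndufb4b reached 1 FPKM in 1 library. These 5 genes are those that the filter removed. Cox6a2, Cox8c and Ndufb1 were not analysed here.

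Within the Cox7a family, Cox7a2l, which takes part in joining complexes III and IV into supercomplexes, took the larger share in every library, at 191 ± 16.8 FPKM. Cox7a2, the form of most tissues, was at 112 ± 9.92 FPKM, and Cox7a1, the heart and muscle form, at 3.56 ± 1.44 FPKM. Ndufa4, a subunit of complex IV despite its name, was at 302 ± 23.9 FPKM and its hypoxia-inducible paralog Ndufa4l2 at 35.8 ± 6.56 FPKM, between 7.39% and 11.9% of the pair.

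The subunit genes shifted in the same direction within most libraries. Each gene's deviation in a library is its log2(FPKM + 1) minus the mean of the other 11 libraries. The median deviation of the 80 genes was -0.04, 0.02 and -0.05 in mock replicates 1, 2 and 3, and -0.05, 0.12 and -0.08 in pEGFP-N1. It was 0.00, 0.13 and 0.11 in BX795, and -0.04, 0.11 and -0.19 in BX795 plus pEGFP-N1. Replicate 2 was the highest of its group in all 4 groups. In BX795 replicate 2, 78 of the 80 genes were above the other libraries, as were 77 in replicate 2 of BX795 plus pEGFP-N1. In pEGFP-N1 replicate 3, 70 were below. Over all tested genes the library medians stayed between -0.03 and 0.03. Cytosolic ribosomal proteins, whose transcripts are as short, moved much like the subunit genes, with medians of 0.11 in pEGFP-N1 replicate 2, 0.11 and 0.08 in BX795 replicates 2 and 3, and 0.05 in BX795 plus pEGFP-N1 replicate 2. All tested genes with transcripts of at most 600 bases had medians of 0.13, 0.13, 0.09 and 0.07 in the same libraries. The mitochondrial ribosomal proteins moved less there, with 0.03, -0.02, 0.01 and 0.05, and the 8 tested fibroblast markers, with long transcripts, had 0.25, 0.20, 0.19 and 0.02. The fibroblast markers were at -0.35 and -0.31 in pEGFP-N1 replicates 1 and 3, and the part of any of these in the shifts was not tested. In these bulk libraries, less RNA per cell and fewer cells that make it cannot be told apart.

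**Figure D2:**
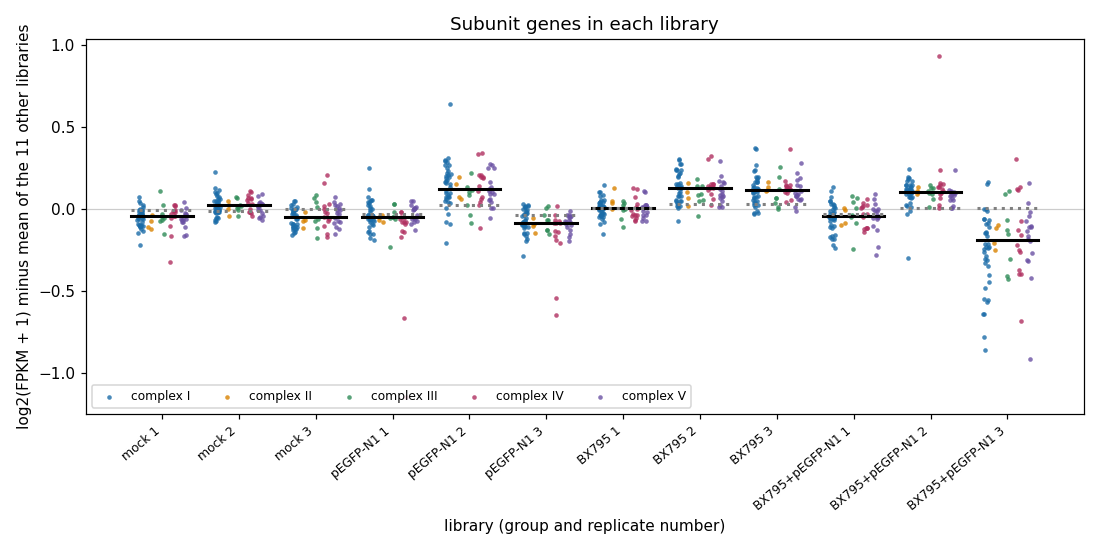
Deviation of each of the 80 subunit genes in each library, as log2(FPKM + 1) minus the mean of the 11 other libraries, coloured by complex, with a black line at the median of the 80 genes and a dotted grey line at the median of all tested genes. BX795 plus pEGFP-N1 replicate 3 has the lowest median, -0.19, and the widest spread.

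The 5 complexes had medians on the same side of 0 in the libraries that lay furthest out. In pEGFP-N1 replicate 2, the library with the highest summed FPKM for the 80 genes (16390), the median deviations of complexes I to V were 0.16, 0.12, 0.10, 0.17 and 0.11. In BX795 plus pEGFP-N1 replicate 3, the library with the lowest sum (13436), they were -0.23, -0.16, -0.14, -0.19 and -0.13. The coefficient of variation over the 12 libraries had a median of 7.99% for the 80 genes and of 6.36% without replicate 3 of BX795 plus pEGFP-N1. Among all 4123 tested genes with a mean of at least 20 FPKM it was 8.16%.

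Replicate 3 of BX795 plus pEGFP-N1 had the lowest median deviation of the subunit genes. All its FPKM values also summed to less than in any other library, 467348. As a share of that sum the 80 genes took 2.87%, as they did in pEGFP-N1 replicate 3 (2.87%). BX795 plus pEGFP-N1 replicate 3 was the lowest of the 12 libraries for 49 of the 80 genes, 61.3% of them, against 20.7% of all tested genes. Of all tested genes, 24.2% were highest in it, against 3 of the 80 subunit genes. Atp5e (chr2:174461072-174464105, minus strand) lay furthest below, with 134.26 and 160.85 FPKM in replicates 1 and 2 and 76.79 FPKM in replicate 3, a deviation of -0.92. Ndufb4c was at 21.91, 19.37 and 13.27 FPKM (deviation -0.86) and Ndufa2 at 32.68, 40.52 and 22.04 FPKM (-0.78). Next came Cox5b at -0.68, with 273.12, 293.27 and 174.20 FPKM, and Ndufb8 at -0.64, with 193.46, 212.85 and 131.53 FPKM. Atp5e is the epsilon subunit of ATP synthase, Cox5b the zinc-binding subunit of complex IV, and the others are accessory subunits of complex I. All 5 had their lowest value of the 12 libraries here.

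A few genes went the other way in the same library. Cox7c (chr13:86044816-86046904, minus strand), a small subunit of complex IV, was at 366.98, 397.27 and 479.57 FPKM, a deviation of 0.31 and the highest of its 12 values. Ndufs4, an accessory subunit of complex I, had a deviation of 0.17 with 22.78, 30.23 and 29.78 FPKM, and Atp5mpl one of 0.16 with 125.13, 130.78 and 143.92 FPKM. Among the core subunits, Ndufs8 (-0.55), Ndufs7 (-0.48) and Uqcrfs1 (-0.41) were low, while Atp5c1 (0.04), Ndufs1 (-0.06) and Atp5b (-0.07) were close to their other values.

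The coding sequences of the lowest and the highest of the named genes in that library are shown because both come from short transcripts, of 421 and 540 bases, and lie at opposite ends. They run 5′ to 3′ without the stop codon, from the GENCODE M21 transcripts, with G and C in capitals.
Atp5e: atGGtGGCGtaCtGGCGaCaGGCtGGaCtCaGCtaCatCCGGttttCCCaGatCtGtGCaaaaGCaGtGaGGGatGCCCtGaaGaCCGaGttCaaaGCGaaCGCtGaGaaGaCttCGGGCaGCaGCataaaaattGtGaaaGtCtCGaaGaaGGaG
Cox7c: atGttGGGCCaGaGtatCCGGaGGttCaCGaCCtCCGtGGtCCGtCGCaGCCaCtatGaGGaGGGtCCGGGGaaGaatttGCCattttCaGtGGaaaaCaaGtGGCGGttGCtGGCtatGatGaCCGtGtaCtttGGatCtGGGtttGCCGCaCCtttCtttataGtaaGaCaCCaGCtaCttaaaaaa
G and C made up 51.9% of the 156 bases of Atp5e and 50.3% of the 189 bases of Cox7c. Over the whole transcripts the shares were 54.6% and 46.0%.

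Length and base composition moved with the deviations of this library over all genes. Among all tested genes with a transcript of at most 600 bases, the median deviation was -0.19, and it was -0.17, -0.14, -0.06, 0.03 and 0.18 in the classes up to 1000, 1500, 2500 and 4000 bases and beyond. Subunit transcripts are short: their median length was 745 bases against 2644 for all tested genes, and 81.0% of the 79 with a length were under 1500 bases against 20.03%. With the trends on length and on GC content removed from every library (an alternative chosen after the data were seen), the median deviation of the subunit genes in replicate 3 went from -0.19 to -0.05, and 31 of 79 were above the other libraries. Atp5e (-0.68), Ndufa2 (-0.60), Ndufb8 (-0.55), Cox5b (-0.51) and Ndufb6 (-0.49) remained lowest, and Cox7c (0.40) highest. Ndufb4c has no transcript length here and could not be corrected.

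**Figure D3:**
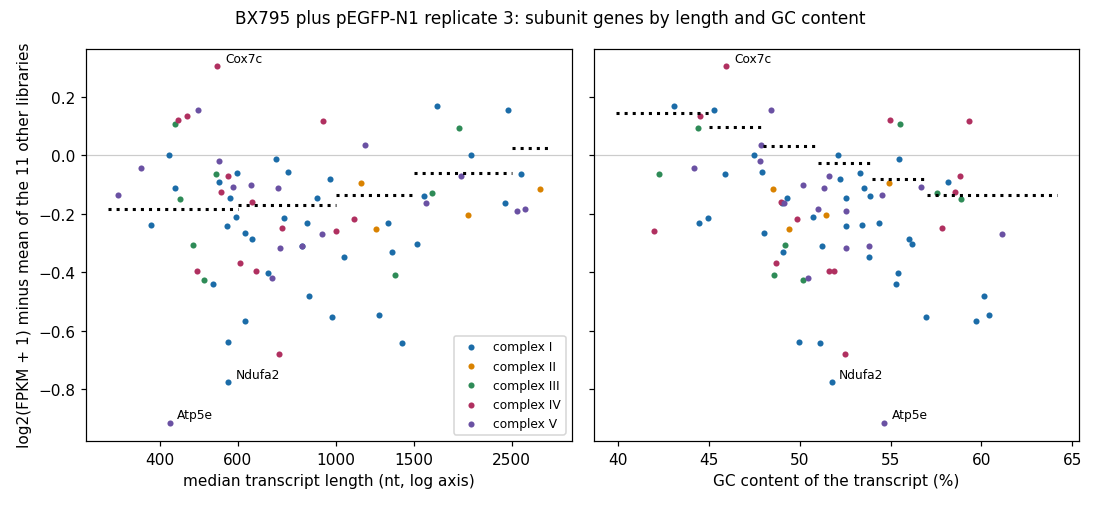
Deviation of 79 subunit genes in BX795 plus pEGFP-N1 replicate 3 against median transcript length (left, log axis) and GC content (right), coloured by complex, with dotted lines at the median of all tested genes in each class of length or GC content. Atp5e at -0.92 and Cox7c at 0.31 lie at similar lengths, and the dotted medians rise from -0.19 in the shortest class.

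Across the 79 subunit genes the correlation of deviation with GC content was -0.29 in this library. In the other 11 it took both signs. It was 0.57 in pEGFP-N1 replicate 2, 0.40 and 0.34 in BX795 replicates 2 and 3, between 0.08 and 0.19 in mock replicate 2 and BX795 plus pEGFP-N1 replicates 1 and 2, and between -0.27 and -0.13 in mock replicates 1 and 3, pEGFP-N1 replicates 1 and 3 and BX795 replicate 1. These are across genes of 1 library each, and the genes share that library. After both trends were removed, the library medians lay between -0.05 and 0.07. The part of length, base composition and RNA handling in the shifts was not tested.

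The first comparison asked what the plasmid alone did to the subunit genes. With limma and Benjamini-Hochberg adjustment over all tested genes, 0 of the 80 passed an adjusted p of 0.05 between pEGFP-N1 and mock, where 0.0672% of all tested genes passed. At an unadjusted p under 0.05, 0 were higher and 1 lower, where 2.57% and 2.11% of all genes were. The median difference on the log2(FPKM + 1) scale was 0.02 against 0.00 for all genes, and 53 of the 80 were above 0 against 49.1% of all genes. That direction rested on pEGFP-N1 replicate 2, without which the median was -0.03 and 20 of the 80 were above 0 against 43.3% of all genes. With the length trend removed the median was -0.02, with 26 of 79 above 0 against 44.1%. The 95% interval of the difference lay within ±0.5 for 76 of the 80 genes. Complex V had 14 of 17 genes above 0 (median 0.03) and complex IV 6 of 14 (median -0.01), and without pEGFP-N1 replicate 2 they had 4 (median -0.04) and 1 (median -0.07).

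The gene at an unadjusted p under 0.05 was Cox7a1 (chr7:30184144-30186078, plus strand). The mock libraries had 2.55, 3.64 and 3.96 FPKM and the pEGFP-N1 libraries 1.10, 3.05 and 1.89 FPKM, a difference of -0.58 ± 0.25 (SE, limma adjusted p = 0.995). The groups overlapped, since pEGFP-N1 replicate 2 lay above mock replicate 1. Uqcrb did not overlap, with 310.15, 288.73 and 297.69 FPKM in mock and 280.23, 274.03 and 283.06 FPKM in pEGFP-N1, a difference of -0.10 ± 0.05. Ndufb4 was the other gene lower in every pEGFP-N1 library and Ndufa5 the one gene higher, where 7.41% and 5.52% of all tested genes were separated in these ways. Without pEGFP-N1 replicate 2, 19 members were separated downwards and 1 upwards, where 30.6% and 21% of all genes were. Ndufa4l2 had 34.29, 36.16 and 39.09 FPKM in the mock libraries and 22.79, 44.04 and 24.62 FPKM in pEGFP-N1. It was low in the pEGFP-N1 libraries with high Isg15 and high in the one without. In BX795 plus pEGFP-N1 replicate 1, the third library with high Isg15, it was at 34.50 FPKM, within the range of mock and BX795. The difference of the means was -0.31 ± 0.19 (95% interval -0.74 to 0.11).

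The next comparison asked what the inhibitor did in cells without plasmid. In BX795 against mock, 74 of the 80 genes had a difference above 0, against 56.9% of all genes, with a median of 0.09 against 0.03. As a set the groups overlapped, since the median deviation of the 80 genes was 0.00 in BX795 replicate 1 and 0.02 in mock replicate 2. It was 0.13 and 0.11 in BX795 replicates 2 and 3, and the 80 genes share these libraries. None of the 80 passed an adjusted p of 0.05 with limma, where 0.0672% of all tested genes did in either direction. Counted at an unadjusted p under 0.05, 1 was higher and 0 lower, where 8.45% and 5.4% of all genes were. All 17 genes of complex V and all 4 of complex II were above 0, with medians of 0.09 and 0.14, as were 34 of 37 in complex I, 6 of 8 in complex III and 13 of 14 in complex IV. In 24 genes, 30.0% of the 80, every BX795 library was above every mock library, where 23.6% of all tested genes were, and in 0 genes every BX795 library was below, where 16.2% of all genes were. With the length and GC trends removed the median was 0.03 and 58 of 79 were above 0 against 48.2% of all genes.

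Sdha had the lowest p of this comparison, with 81.89, 86.05 and 82.44 FPKM in mock and 93.21, 92.06 and 92.70 FPKM in BX795, all 3 above mock. Its difference was 0.15 ± 0.07 (95% interval 0.01 to 0.29, limma unadjusted p = 0.042, adjusted p = 0.34). Ndufv1 had 71.32, 75.23 and 71.91 FPKM without and 76.80, 87.64 and 88.14 FPKM with BX795, a difference of 0.20 ± 0.09 with no overlap. Sdhb stood at 94.61, 99.51 and 94.62 FPKM in mock against 102.31, 112.85 and 109.50 FPKM in BX795, a difference of 0.17 ± 0.08. The mock values of Atp5b were 1084.89, 1124.01 and 1091.09 FPKM and its BX795 values 1148.25, 1187.36 and 1199.26 FPKM, also without overlap. At the other end stood Uqcrb, at -0.03 ± 0.05, and Cox5a, a subunit of complex IV, at -0.02 ± 0.06.

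This comparison rests on the spread that was assumed. When the model was fitted to the mock and BX795 libraries alone, 8 of the 80 genes passed an adjusted p of 0.05 and all 8 were higher in BX795, where 12.7% of all tested genes passed in that direction and 7.97% in the other. They were the complex I genes Ndufa6, Ndufa13, Ndufs7 and Ndufv1, both catalytic subunits of complex II (Sdha and Sdhb), Cox6c and Atp5e. Of these, Ndufa13 had the largest difference, 0.29 ± 0.07, and Sdha the smallest, 0.15 ± 0.04. With the length and GC trends removed as well, 4 passed (Ndufv1, Cox6c, Ndufa13 and Sdha), where 10.6% of all genes did in that direction.

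Plasmid in the presence of BX795 was compared with BX795 alone. In the libraries labelled with both agents 72 of the 80 genes were lower and 8 higher, against 43.8% of all genes higher, and the median difference was -0.12 against -0.02. With limma 0 of the 80 and 0% of all tested genes passed an adjusted p of 0.05. Without adjustment, 0 were higher and 5 lower at p under 0.05 (Ndufv1, Atp5k, Ndufb4c, Ndufa13 and Sdha), where 1.96% and 3.6% of all genes were. Without replicate 3 of BX795 plus pEGFP-N1 the median was -0.04, 21 genes were above 0 against 42.0% of all genes, and 1 was lower at an unadjusted p under 0.05, where 4.36% of all genes were. Without all 3 libraries that stood apart it turned to 0.03, with 53 of the 80 above 0 against 45.03% of all genes. In 3 genes, Ndufb4c, Ndufc1 and Sdha, every library with plasmid was below every BX795 library, where 6.66% of all genes were, and in 0 genes every one was above, where 4% of all genes were. Without replicate 3 these counts were 4, with Cox7c added, and 3 (Ndufa8, Uqcrfs1 and Atp5g1), where 17% and 10.8% of all genes were.

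**Figure D4:**
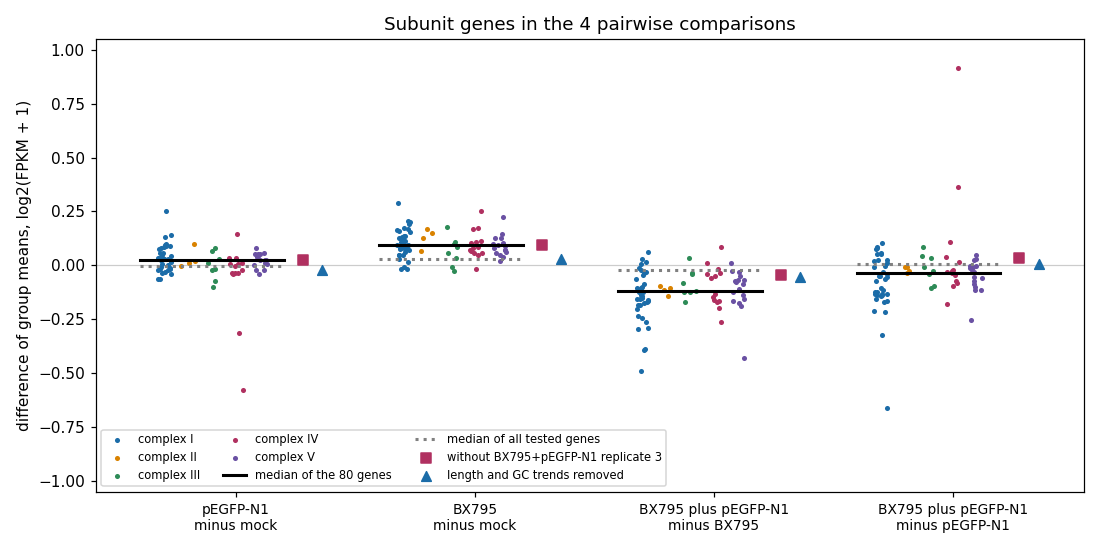
Differences of group means on the log2(FPKM + 1) scale for the 80 subunit genes in the pairwise comparisons, coloured by complex, with a black line at their median and a dotted grey line at the median of all tested genes. Squares give the median of the subunit genes without BX795 plus pEGFP-N1 replicate 3 and triangles the median with length and GC trends removed, which for BX795 plus pEGFP-N1 against BX795 lie at -0.04 and -0.05 instead of -0.12.

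Ndufb4c, a gene close to the complex I subunit Ndufb4 in sequence and at the lower end of its complex, had the lowest p here. It was at 24.33, 26.31 and 25.59 FPKM in BX795 and at 21.91, 19.37 and 13.27 FPKM with the plasmid, a difference of -0.49 ± 0.17 (limma unadjusted p = 0.014, adjusted p = 0.60). The size of this difference rests in part on the odd replicate 3, where the gene was at 13.27 FPKM. Ndufv1 was at 76.80, 87.64 and 88.14 FPKM in BX795 and at 68.74, 79.28 and 62.52 FPKM with the plasmid, a difference of -0.26 ± 0.09, and these groups overlapped. Atp5k, a membrane subunit of ATP synthase, was at 162.41, 175.41 and 183.22 FPKM against 141.28, 165.79 and 150.10 FPKM, a difference of -0.19 ± 0.07. Ndufa13, an accessory subunit of complex I, was at 73.29, 83.04 and 86.58 FPKM against 59.55, 80.16 and 48.11 FPKM, a difference of -0.39 ± 0.16. The differences of Ndufv1 and Ndufa13 also rest in part on the odd replicate 3, where both genes were lowest of the 12 libraries. At the other end were Ndufab1, at 0.06 ± 0.05, and Cox7a1, at 0.09 ± 0.25.

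The last pairwise comparison asked how BX795 changed cells that had plasmid. Against pEGFP-N1 alone, 58 of the 80 genes were lower and 22 higher, where 52.8% of all genes were higher, with a median of -0.04 against 0.01 for all genes, and without replicate 3 of BX795 plus pEGFP-N1 62 were higher against 50.5% of all genes and the median was 0.03. It was also above 0 without pEGFP-N1 replicate 2 (0.01, with 44 higher against 56.3%) and with the length trend removed (0.01, with 43 of 79 higher against 51.4%). With limma, 0 of the 80 and 0% of all tested genes passed an adjusted p of 0.05. Unadjusted, 1 of the 80 was higher and 1 lower at p under 0.05, where 0.749% and 0.845% of all genes were. These were Cox7a1 and Ndufb4c, and they were also the members whose libraries did not overlap between the groups. Such separation was seen for 1.39% of all genes upwards and 1.41% downwards. Without replicate 3 of BX795 plus pEGFP-N1 6 members were separated upwards (Cox7a1, Ndufb10, Ndufb4, Uqcrb, Uqcrfs1 and Atp5g1) and Ndufb4c downwards, where 3.07% and 3.37% of all genes were. Without pEGFP-N1 replicate 2 instead there were 9 upwards, Cox7a1 and Ndufa4l2 among them, and again Ndufb4c downwards, where 12.6% and 9.07% of all genes were.

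Cox7a1 was at 3.46, 6.88 and 3.70 FPKM in BX795 plus pEGFP-N1 and at 1.10, 3.05 and 1.89 FPKM in pEGFP-N1. All 3 values were above all pEGFP-N1 values, and the difference was 0.92 ± 0.25 (95% interval 0.37 to 1.46, limma unadjusted p = 0.0035, adjusted p = 0.96), the largest of any member in any pairwise comparison. Ndufb4c was at 27.91, 36.04 and 23.59 FPKM in pEGFP-N1 and lower in every library with BX795 and plasmid, a difference of -0.66 ± 0.17 (95% interval -1.03 to -0.29, limma unadjusted p = 0.0022, adjusted p = 0.96). Ndufb4, the gene with which it shares sequence, was at 99.32, 96.59 and 100.68 FPKM in pEGFP-N1 and at 104.95, 106.71 and 96.51 FPKM in BX795 plus pEGFP-N1. The share of Ndufb4c in the sum of Ndufb4, Ndufb4b and Ndufb4c went from 12.1% in BX795 plus pEGFP-N1 replicate 3 to 27.2% in pEGFP-N1 replicate 2. Ndufa4l2 was at 34.50, 41.09 and 38.07 FPKM with BX795 and plasmid, a difference of 0.36 ± 0.19 from pEGFP-N1.

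**Figure D5:**
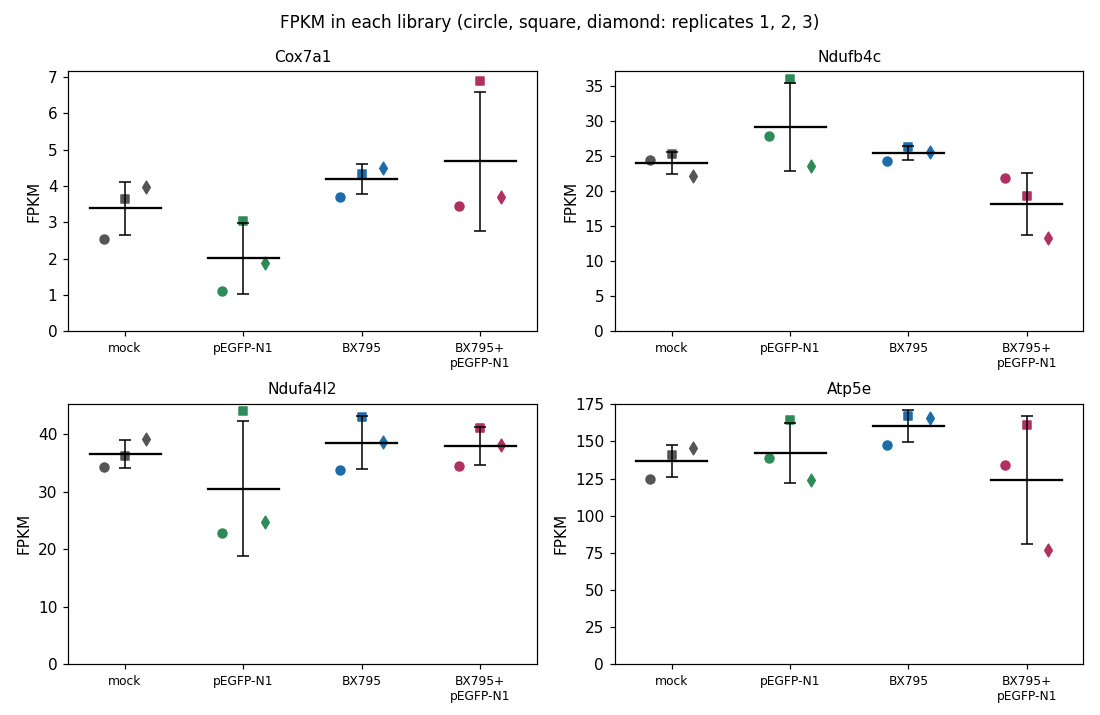
FPKM of Cox7a1, Ndufb4c, Ndufa4l2 and Atp5e in each library by group, with circles, squares and diamonds for replicates 1, 2 and 3, a line at the group mean and bars of 1 SD (n = 3). Cox7a1 and Ndufa4l2 are lowest in pEGFP-N1 replicates 1 and 3, and Atp5e falls to 76.79 FPKM in BX795 plus pEGFP-N1 replicate 3.

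The difference of the plasmid effects with and without BX795 was tested directly. Its median over the 80 genes was -0.13 against -0.02 for all genes, 8 of 80 were above 0 against 45.8%, and without replicate 3 of BX795 plus pEGFP-N1 the median was -0.06. Without all 3 libraries that stood apart it turned to 0.06, with 68 of the 80 above 0 against 54.8% of all genes. With limma, 0 of the 80 and 0% of all tested genes passed an adjusted p of 0.05. Unadjusted, 0 were higher and 3 lower at p under 0.05 (Ndufb4c at -0.74 ± 0.24, Ndufv1 at -0.36 ± 0.13 and Ndufa6 at -0.33 ± 0.14), where 1.51% and 2.4% of all genes were. All 3 of these genes were lowest of the 12 libraries in replicate 3 of BX795 plus pEGFP-N1, so the size of their differences rests in part on it. The average of the BX795 differences had a median of 0.02 and the average of the plasmid differences one of -0.05, also with 0 of the 80 and 0% of all tested genes passing. Before adjustment the first had, at p under 0.05, 2 higher (Cox7a1 at 0.58 ± 0.18 and Ndufab1 at 0.09 ± 0.04) and 1 lower (Ndufb4c at -0.29 ± 0.12), where 6.76% and 4.56% of all genes were, and the second had 0 and 0, where 3% and 3.12% were. These comparisons share libraries with each other, and their values are set side by side for that reason only.

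The libraries that stood apart decide some of these values. They were found by Isg15 and by their FPKM in these data, so leaving them out is an alternative and not a correction of the labels. Without pEGFP-N1 replicate 2 alone, the average BX795 difference called 2 of the 80 genes, Ndufa4l2 at 0.36 ± 0.07 (limma adjusted p = 0.032) and Cox7a1 at 0.70 ± 0.16 (adjusted p = 0.036), both higher, where 5.29% of all genes were called higher. The average plasmid difference then called 1, Ndufa4l2 at -0.31 ± 0.07 (adjusted p = 0.044), where 1.85% of all genes were called lower. Without that library, BX795 plus pEGFP-N1 replicate 1 and the odd replicate 3 together, the BX795 plus pEGFP-N1 group is 1 library, assumed to vary like the others. Then 2 genes were lower in pEGFP-N1 than in mock, Cox7a1 at -0.82 ± 0.16 (adjusted p = 0.013) and Ndufa4l2 at -0.60 ± 0.09 (adjusted p = 0.0029), where 4.57% of all genes were called lower. In BX795 against mock 9 of the 80 were called higher and 0 lower, where 14.8% and 9.43% of all genes were. In BX795 plus pEGFP-N1 against pEGFP-N1 7 were called higher and 1 lower, where 8.58% and 6.04% of all genes were. Cox7a1 was among the 7 at 1.68 ± 0.21 (adjusted p = 0.00068) and Ndufa4l2 at 0.77 ± 0.12 (adjusted p = 0.0024), with Cox4i1, Cox6c, Cox7a2l, Ndufs1 and Ndufa13 between 0.18 and 0.39, and Ndufb4c was the one lower, at -0.39 ± 0.10. The average BX795 difference then called 38 of the 80 higher and 0 lower, with a median of 0.12, where 21.4% of all genes were called higher and 14.8% lower. With the length and GC trends removed as well it called 16 of 79 higher and 0 lower, where 18.4% of all genes were called higher and 19.4% lower.

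Genes that work with the subunits were taken from fixed lists. None of 49 tested assembly factors, 7 electron carriers, 17 genes of the citrate cycle, 14 regulators of mitochondrial biogenesis, 76 mitochondrial ribosomal proteins, 85 cytosolic ribosomal proteins or 15 glycolysis genes passed an adjusted p of 0.05 with limma in any of the 7 comparisons. In BX795 against mock, 2 of the assembly factors, 2 of the electron carriers, 0 of the citrate cycle genes, 2 of the regulators, 1 protein of each ribosome and 3 of the glycolysis genes were at an unadjusted p under 0.05 in either direction, where 8.45% of all tested genes were higher and 5.4% lower. With 56.9% of all genes above 0 there, 16 of the 17 citrate cycle genes were above 0, with a median of 0.05, and 73 of the 85 cytosolic ribosomal proteins, also with 0.05. Glycolysis genes were above 0 in 3 of 15 (median -0.05) and mitochondrial ribosomal proteins in 35 of 76 (median 0.00).

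Ndufaf3, an assembly factor of complex I, was 0.41 ± 0.18 higher in BX795 than in mock (limma unadjusted p = 0.043, adjusted p = 0.35), and Sco2, a copper chaperone for complex IV, was at -0.41 ± 0.14 (unadjusted p = 0.013, adjusted p = 0.28). Cytochrome c itself, Cycs, was at -0.22 ± 0.10 in BX795 against mock and at 0.22 ± 0.10 in BX795 plus pEGFP-N1 against BX795. Etfa, which feeds electrons from fatty acid oxidation to ubiquinone, was at 0.21 ± 0.08 and -0.21 ± 0.08 in the same comparisons. These 2 comparisons share the BX795 libraries. Ppargc1b, a coactivator of mitochondrial genes, was at -0.34 ± 0.17 and 0.40 ± 0.17, and Atpif1 at 0.08 ± 0.10 and -0.08 ± 0.10.

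Most of the other lists were low in BX795 plus pEGFP-N1 replicate 3 as well. The median deviation there was -0.23 for the cytosolic ribosomal proteins, -0.18 for the mitochondrial ribosomal proteins and -0.09 for the assembly factors, whose median transcript lengths were 744, 1228 and 1468 bases. It was -0.15 for the electron carriers (1747 bases), with 5 of 7 below the other libraries, and also -0.15 for the glycolysis genes (2236.5 bases), with 14 of 15 below. It was 0.00 for the citrate cycle genes (2492 bases) and 0.09 for the regulators of biogenesis (2762 bases).

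Promoter sequence was described for the 80 genes, and its part in their shifts between libraries was not tested. RefSeq windows on GRCm38.p6, 250 bases before to 50 after a start, were found for 66 of the 80. The core of the NRF1 site was searched on both strands as CGCATGCG, the site of ETS factors such as GABPA as CCGGAAGT, the YY1 site as AAGATGGC, and a TATA box as TATAAA. NRF1, GABPA and YY1 are known regulators of genes for the respiratory chain. The NRF1 letters stood in 9 of the 66 genes (13.6%), against 4.74% of 8416 tested genes with a window and 2.07% of all 27025 genes with one. The YY1 letters were in 10 (15.2%, against 5.76% and 3.19%) and the ETS letters in 5 (7.58%, against 10.2% and 4.31%). The TATA letters, counted anywhere in the window on either strand, were in 6 (9.09%, against 8.15% and 15.7%). The genes with the NRF1 letters were Atp5g2, Atp5j, Atp5k, Atp5l, Cox6a1, Ndufa8, Ndufa11, Uqcr11 and Uqcrc1, so that complexes I, III, IV and V were all represented. The YY1 letters stood in Atp5j, Atp5j2, Atp5pb, Ndufa3, Ndufa9, Ndufb8, Ndufc1, Ndufs4, Ndufs6 and Ndufs7. The letters were chosen after earlier searches of the same windows, and a match of letters is not a measured binding site.

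The 250 bases before the start are shown for 2 members with the NRF1 letters, in capitals, and for Cox7a1. That member had the largest difference in any pairwise comparison, and its window holds none of the 4 motifs. The windows are chr5:108434400-108434649 (minus strand) for Atp5k, chr5:115348959-115349208 (minus strand) for Cox6a1 and chr7:30183921-30184170 (plus strand) for Cox7a1, each 5′ to 3′ on the gene's strand.
Atp5k: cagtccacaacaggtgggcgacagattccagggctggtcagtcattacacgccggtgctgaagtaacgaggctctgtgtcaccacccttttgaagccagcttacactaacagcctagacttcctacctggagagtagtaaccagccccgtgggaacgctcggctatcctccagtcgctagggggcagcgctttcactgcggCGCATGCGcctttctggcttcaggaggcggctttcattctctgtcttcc
Cox6a1: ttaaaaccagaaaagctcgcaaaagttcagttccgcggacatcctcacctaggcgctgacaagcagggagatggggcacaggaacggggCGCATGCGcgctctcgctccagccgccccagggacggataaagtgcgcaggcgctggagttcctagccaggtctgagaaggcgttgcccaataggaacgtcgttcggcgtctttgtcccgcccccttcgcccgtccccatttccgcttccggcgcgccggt
Cox7a1: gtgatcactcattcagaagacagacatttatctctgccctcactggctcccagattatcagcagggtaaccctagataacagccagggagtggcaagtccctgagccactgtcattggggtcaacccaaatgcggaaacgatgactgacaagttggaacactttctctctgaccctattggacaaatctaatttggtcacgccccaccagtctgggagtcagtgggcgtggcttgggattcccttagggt
The letters began 49 bases before the start of Atp5k and 161 bases before that of Cox6a1. G and C made up 57.6%, 62.8% and 51.2% of the 3 windows. In BX795 plus pEGFP-N1 against BX795 Atp5k was at -0.19 ± 0.07 and Cox6a1 at -0.06 ± 0.10.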

How the data were processed

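Gene expression in 12 libraries of L929 cells was measured by RNA-seq. The authors aligned the reads to GRCm38.p5 with Bowtie2 2.2.5, estimated expression with RSEM and deposited FPKM values per gene, already divided by transcript length and library size; the annotation they used is not given in the sources used here. Libraries were grouped by their labels, 3 per group. FPKM keeps no read totals, so counting error cannot be given. Genes with at least 1 FPKM in at least 3 libraries were tested on log2(FPKM + 1), so differences of low genes are understated. Means of the 4 groups were fitted with limma 3.58.1 (R 4.3.3, trend in the prior variance, Benjamini-Hochberg adjustment over 10412 genes), and a call is an adjusted p under 0.05. The script was tested on simulated data. Transcript length, GC content and shared 31-base words came from GENCODE M21 (79 members matched) and promoters from RefSeq. The files pair 17450 of 17571 identifiers with symbols.

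Named members were the 2 highest and 2 lowest by moderated statistic in each comparison, the highest and lowest level of each complex, the isoform families, the catalytic core, and the 5 lowest and 3 highest in BX795 plus pEGFP-N1 replicate 3. Of the catalytic core, 1 member is not reported here by name. Genes named for separated groups, for calls in an alternative or for promoter letters were chosen after their values were seen. The members, the gene lists (assembly factors, electron carriers, citrate cycle, biogenesis regulators, both ribosomes, glycolysis, interferon-stimulated genes, cell markers) and the rules were chosen with earlier results of these data known. The letters of the motifs were chosen after earlier searches of the same windows. Alternatives changed the pseudocount, the filter, the scaling (TPM, quantile normalization, length and GC trends), the samples in the fit and the libraries.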

Additional observations from a re-analysis of the deposited data

How the results depend on the processing

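The counts of subunit genes called and the medians were recomputed under each alternative, and under those not given here 0 members were called. Beside counts of adjusted calls, the share of all tested genes called in the same direction is given in brackets. At an unadjusted p under 0.05 instead of an adjusted one, the counts were 1 for pEGFP-N1 against mock, 1 for BX795 against mock, 5 for BX795 plus pEGFP-N1 against BX795, 2 for it against pEGFP-N1, 3 for the average BX795 difference and 3 for the difference of the plasmid effects. When the model was fitted only to the groups compared, 8 members were called higher in BX795 than in mock (12.7%), and 4 with the length and GC trends also removed (10.6%). Without pEGFP-N1 replicate 2 and BX795 plus pEGFP-N1 replicates 1 and 3 together, 2 were called lower in pEGFP-N1 than in mock (4.57%), 9 higher in BX795 than in mock (14.8%), 8 in BX795 plus pEGFP-N1 against pEGFP-N1, of which 7 were higher (8.58%) and 1 lower (6.04%), 38 higher for the average BX795 difference (21.4%) and 2 higher for the difference of the plasmid effects (0.106%). With the length and GC trends also removed they were 5 lower (5.67%), 4 higher (12.2%), 11 higher (8.78%), 16 higher (18.4%) and 2 higher (0.166%). Without the first 2 of these libraries they were 1 lower (1.56%), 0, 3 (2 higher, 10.5%, and 1 lower, 7.60%), 8 (7 higher, 19.96%, and 1 lower, 13.9%) and 1 higher (0.0864%), with 1 lower for the average plasmid difference (2.30%). Each of these fits lost samples or added trends, and the cause of the other changes was not tested.

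Leaving out 1 library at a time gave 0 to 1 calls for the average plasmid difference and 0 to 2 for the average BX795 difference, in both cases 0 unless pEGFP-N1 replicate 2 was left out. Without the 3 libraries the median of BX795 plus pEGFP-N1 against BX795 was 0.0262 (0.0197 with both trends removed), that against pEGFP-N1 0.147 (0.0956), that of the average BX795 difference 0.124 and that of the difference of the plasmid effects 0.0604 (0.0650). The last of these medians was -0.0207 with the length trend removed from all libraries and -0.0350 with both. The median deviation in BX795 plus pEGFP-N1 replicate 3 was -0.0815 as TPM, -0.0585 with the length trend removed and -0.0497 with both. The GC trend, the joint trends, their combinations, the fit without 2 libraries and the counts of separated groups without 1 library were added after the data were seen. The median of pEGFP-N1 against mock lay on the other side of 0 under 7 of 29 alternatives (-0.05 to -0.02), among them the length trend, both trends and leaving out pEGFP-N1 replicate 2. That of BX795 plus pEGFP-N1 against pEGFP-N1 did so under 8 of 29 (0.01 to 0.15), and that of the average BX795 difference under 1 of 27, without BX795 plus pEGFP-N1 replicate 2 (-0.02). For 44 named members in the pairwise comparisons, 3109 of 3332 differences recomputed with another scaling, pseudocount or filter, with the block or without 1 library stayed on the same side of 0. A further 180 changed side by less than 1 SE of the reported difference and 43 by more, all of them uncalled.

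The replicate numbers are not said to mark shared cultures. Over 18 pairs of libraries with the same number the correlation of deviations ran from -0.39 to 0.63, and 6 of 12 libraries correlated best with their own number. With a replicate block 0 members were called in each of the 7 comparisons, and at an unadjusted p under 0.05 9 of the 80 were higher in BX795 than in mock (11.03% of all tested genes) and 19 lower in BX795 plus pEGFP-N1 than in BX795 (6.67% of all tested genes). With 3 libraries per group and no read totals, the median 95% interval of a pairwise difference was ±0.21 on the log2(FPKM + 1) scale.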

Other observations

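Some members sat apart from the rest of their complex in single libraries. Cox7a1 ran from 1.10 FPKM in pEGFP-N1 replicate 1 to 6.88 FPKM in BX795 plus pEGFP-N1 replicate 2, deviations of -1.15 and 0.94 that were the largest of any member in any library. pEGFP-N1 replicate 2 was the highest of the 12 libraries for 27 of the 80 subunit genes, against 15.7% of all tested genes. Aldoa, a glycolysis gene outside the 80, was at 576.69 FPKM in BX795 plus pEGFP-N1 replicate 3 and at 803.83 to 859.75 FPKM in the other 11 libraries.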
